A study of Homo sapiens with 36 samples.

Results

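PMD-Sen cells at D16 are WI-38 cells that were made senescent by transient plasma membrane damage with the detergent SDS and collected on day 16. Their mature miRNAs were compared with those of proliferating untreated WI-38 cells (Ctrl), which are labelled young. No untreated cells of day 16 were sequenced. Effects of SDS, of the days in culture and of the growth arrest itself therefore cannot be told apart. WI-38 is a strain of normal human lung fibroblasts, and the libraries carry the cell type label normal human fibroblast. The comparison uses 4 of the 36 small RNA libraries of the series, 2 labelled as biological replicates of SDS D16 and 2 of Ctrl, and all 1508 miRNAs of the count table. All groups share the cell strain and the small RNA library kit, and no genetic change is named for any of them. The other groups are SDS-treated and doxorubicin (DXR)-treated cells on 8 days from D0 to D16, and cells in replicative senescence (RS), with 2 libraries each. D0 is the end of the treatment, before washout, and the later days count from washout. RS was reached by serial passage. DXR damages DNA, and its D16 cells are called DDR-Sen here. Single cells were not resolved, so a lower level can come from fewer cells that hold a miRNA or from less of it per cell, and these cannot be told apart. All levels are CPM, the count of a miRNA scaled to a common library total by TMM, so each is a share of the miRNA counts of its library and not an amount per cell.

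A miRNA is cut from a hairpin precursor, which can release a mature strand from its 5p arm and another from its 3p arm. Bases 2 to 8 of the mature strand, the seed, pair with target mRNAs and largely set which mRNAs are repressed, so miRNAs with the same seed form a family. Many hairpins lie close together and are transcribed as one cluster. In fibroblasts, senescence is a stable arrest of the cell cycle, and the miRNAs most often discussed in it act on cell cycle inhibitors, on p53 signalling and on inflammatory signalling.

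Mature sequences were taken from RefSeq (GRCh38.p14), which matched 329 of the 360 tested miRNAs. They are written 5′ to 3′ with the seed in capitals. The first set is shown because its members came from the miR-17-92 and miR-106b-25 clusters and the miR-92b hairpin, carry one of 2 seeds, and were all lower in mean level in PMD-Sen D16.
miR-17-5p: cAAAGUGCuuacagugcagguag
miR-20a-5p: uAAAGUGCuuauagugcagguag
miR-93-5p: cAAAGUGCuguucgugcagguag
miR-106b-5p: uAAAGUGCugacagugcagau
miR-92a-3p: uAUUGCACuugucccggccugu
miR-92b-3p: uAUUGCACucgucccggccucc
miR-25-3p: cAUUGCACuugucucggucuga

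The next set holds strands of the miR-23/27/24 and miR-29 hairpins and miR-125a, in which the arms of 1 hairpin or the members of 1 seed family differed in their change. The miR-23a and miR-23b 3p strands share a seed, and so do the 3p strands of miR-27a and miR-27b, while their 5p partners carry other seeds.
miR-23a-3p: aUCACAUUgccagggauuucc
miR-23b-3p: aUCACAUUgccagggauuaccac
miR-23a-5p: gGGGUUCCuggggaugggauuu
miR-27a-3p: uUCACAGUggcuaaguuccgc
miR-27b-3p: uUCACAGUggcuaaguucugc
miR-27a-5p: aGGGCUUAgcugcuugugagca
miR-29b-3p: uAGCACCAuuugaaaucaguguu
miR-29b-1-5p: gCUGGUUUcauauggugguuuaga
miR-125a-5p: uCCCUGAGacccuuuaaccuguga
miR-125a-3p: aCAGGUGAgguucuugggagcc

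The third set holds miRNAs that changed outside those groups and 5 strands of the 14q32 locus that rose. Among the first are miR-155-5p and the near-identical miR-320b and miR-320c, which fell, and the 3 strands miR-664a-3p, miR-126-3p and miR-326, which rose.
miR-155-5p: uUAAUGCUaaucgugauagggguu
miR-320b: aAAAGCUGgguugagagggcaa
miR-320c: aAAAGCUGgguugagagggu
miR-664a-3p: uAUUCAUUuauccccagccuaca
miR-126-3p: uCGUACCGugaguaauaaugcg
miR-326: cCUCUGGGcccuuccuccag
miR-369-3p: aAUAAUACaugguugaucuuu
miR-410-3p: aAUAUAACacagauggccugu
miR-655-3p: aUAAUACAugguuaaccucuuu
miR-337-3p: cUCCUAUAugaugccuuucuuc
miR-323b-3p: cCCAAUACacggucgaccucuu

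The Ctrl libraries held 223548 and 327357 counts and the SDS D16 libraries 1933442 and 440285, so replicate 1 of SDS D16 is the deepest library of the series (range 81670 to 1933442). In these 4 libraries 3 counts correspond to 12.9, 8.57, 1.63 and 6.59 CPM, and a miRNA at 0 could still be present at up to that level from counting error alone. On the log2 CPM scale, r over 360 miRNAs was 0.976 between the Ctrl libraries, 0.987 between the SDS D16 libraries and 0.957 to 0.963 between groups. The 11 miRNAs fixed as typical of fibroblasts, such as miR-21-5p, miR-100-5p and miR-125b-5p, summed to 320000 and 343000 CPM in Ctrl and 367000 and 314000 CPM in SDS D16. Markers of epithelial, muscle, neuronal and stem cells were low, with no member above 68.6 CPM. Of the blood cell markers miR-223-3p was at 0 in all 4 libraries and miR-451a had at most 4 counts, while miR-486-5p lay at 202 and 194 CPM in Ctrl and at 227 and 356 CPM in SDS D16.

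By the quasi-likelihood test of edgeR, 32 of 360 miRNAs (8.89%) were higher and 28 (7.78%) were lower in PMD-Sen D16 than in Ctrl at a Benjamini-Hochberg adjusted p below 0.05. Changes were moderate on the whole, as the called miRNAs had a median log2 fold change of 0.91 when higher and -1.26 when lower, and 11 of the 32 and 21 of the 28 passed an absolute value of 1. Over all tested miRNAs the median log2 fold change was 0.05. The SDS D16 libraries did not overlap the Ctrl libraries in any of the 60 called miRNAs, but they also lay apart upward in 35.8% and downward in 31.9% of all tested miRNAs, as 2 against 2 libraries often do.

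The study's own thresholds, an unadjusted p below 0.05 with an absolute log2 fold change above 1, gave 24 higher (6.67%) and 37 lower (10.3%) in the same fit. An unadjusted p below 0.05 alone gave 64 (17.8%) and 58 (16.1%). DESeq2 at adjusted p gave 32 higher (8.89%) and 40 lower (11.1%). Scaling to total counts gave 27 higher and 35 lower, and DESeq2's size factors in edgeR gave 24 and 36, so the balance between the directions moved with the scaling. Each of the 60 miRNAs kept its sign in DESeq2, with other scalings and filters, after thinning and with the replicate block. All 60 also kept it with any 1 library left out. Groups that do not overlap largely fix that outcome, so it adds no support. Leaving out 1 library lowered the counts more, to 6 higher and 12 lower without Ctrl replicate 1, 6 and 10 without Ctrl replicate 2, 13 and 13 without SDS D16 replicate 1, and 20 and 16 without SDS D16 replicate 2. The 9 miRNAs called in all 4 of these fits were miR-155-5p, miR-17-5p, miR-92a-3p, miR-92a-1-5p, miR-93-5p and miR-29b-1-5p, which fell, and miR-127-3p, miR-329-3p and miR-181a-5p, which rose. These 9 were singled out after their values were seen.

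**Figure D1:**
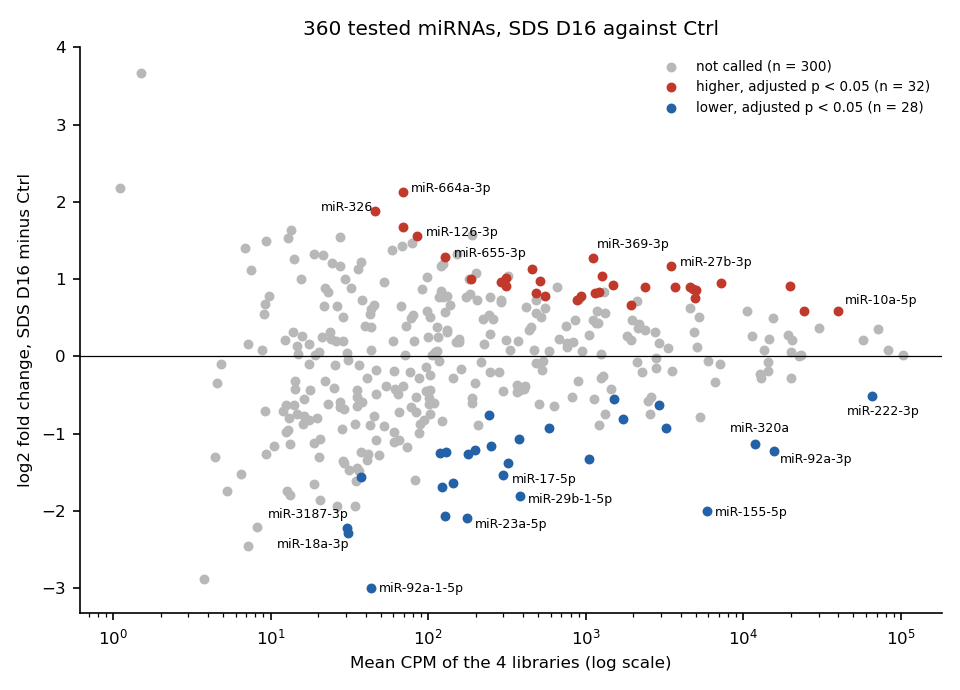
Log2 fold change of SDS D16 over Ctrl (y axis) against the mean CPM of the 4 libraries (x axis, log scale) for 360 tested miRNAs, 1 point each, with the 32 called higher in red, the 28 called lower in blue and the others in grey. The called miRNAs reach from rare strands such as miR-92a-1-5p to abundant ones such as miR-222-3p, and the called rare miRNAs have the larger changes. Rare miRNAs are measured with less precision, so small changes in them seldom pass the test.

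The 10 miRNAs with the most counts in each library took 52.6% to 54.9% of it. The 10 with the highest mean CPM over the 4 libraries changed little. Of these, 3 passed the test, where 8.89% of all tested miRNAs were called higher and 7.78% lower. miR-222-3p, which represses the cell cycle inhibitor p27, was at 70000 and 84700 CPM in Ctrl and at 47700 and 60800 CPM in SDS D16. It fell with a log2 fold change of -0.51 (SE 0.16, adjusted p = 0.0259). miR-10a-5p, encoded in the HOXB gene cluster, was at 33900 and 30000 CPM in Ctrl and rose to 49900 and 46400 CPM (log2 fold change 0.59, SE 0.18, adjusted p = 0.0231). miR-26a-5p, encoded in introns of CTDSP genes, went from 20200 and 18700 CPM to 33200 and 25400 CPM (0.59, SE 0.19, adjusted p = 0.0275). In these 3 miRNAs the groups did not overlap. The other 7 did not pass the test.

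Among those 7, let-7a-5p, which represses RAS genes and HMGA2, ranged from 84600 to 120000 CPM in Ctrl and from 97800 to 109000 CPM in SDS D16. miR-21-5p, a strand known for high levels in activated fibroblasts, was at 60700 and 64500 CPM in Ctrl and at 101000 and 59000 CPM in SDS D16, so the senescent libraries lay on both sides of the controls. Both groups of miR-125a-5p stood within 22800 to 24000 CPM. The signs of let-7a-5p, miR-100-5p, miR-125a-5p and miR-30d-5p, whose log2 fold changes were 0.02, 0.08, 0.01 and 0.00, turned with the scaling. The let-7 family as a whole, 9 members with 1 shared seed, had 0 calls in either direction in edgeR and in DESeq2 and 0 at an unadjusted p below 0.05, with a median log2 fold change of -0.08.

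Clusters of growth-promoting miRNAs stood lower in PMD-Sen D16. miR-17-92, transcribed from MIR17HG on chromosome 13, is induced by MYC and represses p21 and BIM. Of its 11 listed strands 7 were tested, all 7 had a log2 fold change below 0, and 5 fell, where 7.78% of all tested miRNAs did. The median was -1.22, beside 0.05 over all tested miRNAs. Summed over the cluster, the level was 21800 and 23900 CPM in Ctrl and 10300 and 9190 CPM in SDS D16. No other genomic cluster with at least 3 tested strands within 10 kb of each other had a lower median among those with RefSeq positions.

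miR-92a-3p carries most of that sum, at 21000 and 22800 CPM in Ctrl and 9850 and 8930 CPM in SDS D16. The log2 fold change of this strand was -1.22 (SE 0.23, adjusted p = 0.000804). It is encoded at chr13:91351314-91351391 and again on chromosome X, and the counts do not tell these copies apart. miR-17-5p, from chr13:91350605-91350688 (plus strand, within an exon of MIR17HG), had 386 and 508 CPM in Ctrl against 178 and 127 CPM in SDS D16 (-1.53, SE 0.32, adjusted p = 0.0023). miR-20a-5p, which shares the miR-17-5p seed, had 215 and 346 CPM against 152 and 83.5 CPM (-1.22, SE 0.34, adjusted p = 0.0133). In all 3 strands both senescent libraries lay below both controls.

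The rarer strands of the cluster moved in the same direction with less precision. miR-92a-1-5p, the partner strand of miR-92a-3p, showed the lowest log2 fold change among the called miRNAs, -2.99 (SE 0.71, adjusted p = 0.00557), from 90.1 and 65.7 CPM to 12.0 and 4.40 CPM. miR-18a-3p went from 42.9 and 62.8 CPM to 15.2 and 2.20 CPM (-2.29, SE 0.79, adjusted p = 0.0438), where the last value is a single count. The remaining 2, miR-18a-5p and miR-19b-3p, had -0.64 and -0.59 and did not pass the test.

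The related miR-106b-25 cluster lies in MCM7, a gene of the DNA replication licensing complex, on chromosome 7 (hairpins within chr7:100093560-100094074, minus strand). All 6 strands were tested and had a log2 fold change below 0, with a median of -0.77. 1 passed at adjusted p, 4 had an unadjusted p below 0.05, and DESeq2 called 4 lower, beside 7.78%, 16.1% and 11.1% of all tested miRNAs. That 1 strand, miR-93-5p, had 4350 and 4160 CPM in Ctrl and 2410 and 2050 CPM in SDS D16 (-0.93, SE 0.16, adjusted p = 0.000439). miR-25-3p went from 789 and 754 CPM to 592 and 385 CPM (-0.65, SE 0.25, adjusted p = 0.0671) and missed the threshold. miR-106b-5p, at 223 and 226 CPM in Ctrl, lay on both sides of it in SDS D16 at 253 and 167 CPM (-0.08, SE 0.42). None of the 4 listed strands of the third cluster of this kind, miR-106a-363, had enough counts to be tested.

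Read by seed, 3 of the 4 tested miRNAs with AAAGUGC fell, beside 7.78% of all tested miRNAs, and the median was -1.07. Of the 3 with AUUGCAC, miR-92a-3p fell, while miR-92b-3p, at 2930 and 3430 CPM in Ctrl and 1760 and 2030 CPM in SDS D16, had -0.75 (SE 0.31, adjusted p = 0.0892), and DESeq2 called all 3 lower. These seeds are the ones in capitals in the first set of sequences. Members of a seed family with near-identical sequences can share reads, and the deposited counts split such reads, so these are not fully separate measurements.

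**Figure D2:**
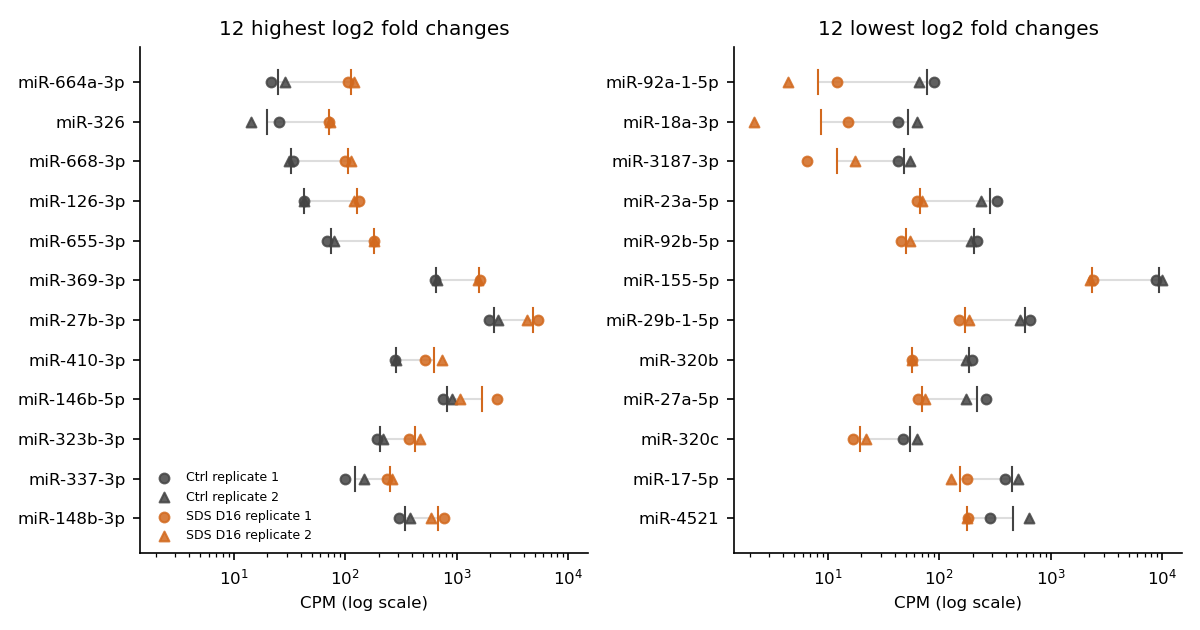
CPM of single libraries (x axis, log scale) for the 12 miRNAs with the highest and the 12 with the lowest log2 fold change among those called with groups apart. Circles are replicate 1, triangles replicate 2, vertical bars the mean of 2 libraries, grey for Ctrl and orange for SDS D16. Replicates spread most for miR-146b-5p among those that rose, and for miR-92a-1-5p, miR-18a-3p, miR-3187-3p and miR-4521 among those that fell.

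miR-155-5p had the smallest adjusted p of all. This strand, processed from the noncoding MIR155HG transcript on chromosome 21 (mature strand at chr21:25573983-25574006), is induced by inflammatory and growth signals and is best known from lymphocytes. It stood at 8820 and 9890 CPM in Ctrl and at 2420 and 2230 CPM in SDS D16. The log2 fold change was -2.01 (SE 0.26, adjusted p = 5.1e-06), and it stayed between -2.09 and -1.92 when any 1 of the 4 libraries was left out.

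All 3 tested members of the miR-320 family fell, beside 7.78% of all tested miRNAs. The median log2 fold change of the family was -1.56, beside 0.05 over all tested miRNAs. Precursors of this family are unusual in that they are made without cutting by Drosha. miR-320a, the abundant member, was at 14500 and 18100 CPM in Ctrl and at 6660 and 8180 CPM in SDS D16 (-1.14, SE 0.36, adjusted p = 0.0287). miR-320b went from 197 and 174 CPM to 57.6 and 57.2 CPM (-1.69, SE 0.46, adjusted p = 0.0133). miR-320c went from 47.2 and 62.8 CPM to 16.8 and 22.0 CPM (-1.56, SE 0.49, adjusted p = 0.0275). As printed above, miR-320b and miR-320c are the same up to base 19, so shared reads cannot be told apart in their counts. None of the 3 was called in any of the 4 fits that left out a library.

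Lower levels were called for further single miRNAs. miR-484, from the NDE1 locus, went from 1660 and 1940 CPM to 1150 and 1300 CPM (-0.56, SE 0.18, adjusted p = 0.0361). miR-877-5p, a mirtron spliced from an intron of ABCF1, went from 262 and 246 CPM to 98.4 and 114 CPM (-1.26, SE 0.42, adjusted p = 0.0361). miR-7-5p, made from several loci of which one lies in HNRNPK, fell from 1210 and 1780 CPM to 699 and 488 CPM (-1.32, SE 0.37, adjusted p = 0.0133). The remaining miRNAs of the 12 lowest were miR-3187-3p, with 42.9 and 54.3 CPM against 6.52 and 17.6 CPM, and miR-4521, with 283 and 640 CPM against 180 and 178 CPM. Also lower were miR-671-5p, miR-744-5p, miR-1307-3p, miR-629-5p and miR-130b-5p, with log2 fold changes of -1.24 to -0.76.

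In several hairpins the 2 arms did not move alike. Of 94 hairpins with both arms tested, 3 had both arms called higher and 1 had both called lower. Calls in opposite directions were made in 0 in edgeR, 2 at an unadjusted p below 0.05 and 0 in DESeq2. The more abundant arm alone was called higher in 14 and lower in 7, the less abundant arm alone was called higher in 2 and lower in 6, and in 61 neither was. The arms' log2 fold changes differed by more than 1 in 26 of the 94, with a median difference of 0.55 in either direction. The difference between arms was not tested.

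The hairpins of the miR-23a/27a/24-2 cluster on chromosome 19, within chr19:13836287-13836659 in exons of MIR23AHG, show such a split. miR-23a-3p, the abundant strand, had 19400 and 20100 CPM in Ctrl and 21400 and 19700 CPM in SDS D16 (log2 fold change 0.06, SE 0.15). Its partner miR-23a-5p fell from 330 and 237 CPM to 63.0 and 70.3 CPM (-2.09, SE 0.51, adjusted p = 0.00657). Per 3p strand the 5p strand thus stood at ratios of 0.0171 and 0.0118 in Ctrl and at 0.00295 and 0.00357 in SDS D16. miR-27a-5p fell from 262 and 174 CPM to 64.7 and 74.7 CPM (-1.64, SE 0.41, adjusted p = 0.00753), while miR-27a-3p, which restrains adipogenesis, had 0.27 (SE 0.27) and did not pass.

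The sister cluster on chromosome 9, in AOPEP, had 3p strands that passed the test. miR-27b-3p rose from 1950 and 2330 CPM to 5390 and 4240 CPM (1.17, SE 0.28, adjusted p = 0.00557). miR-23b-3p rose from 3050 and 4020 CPM to 6900 and 6000 CPM (0.87, SE 0.21, adjusted p = 0.00566). The 5p partners were not called, miR-23b-5p with -0.43 (SE 0.43) and miR-27b-5p with -0.14 (SE 0.36), so the 5p strand lay below the 3p strand in log2 fold change by 1.29 and 1.31 here and by 2.15 and 1.91 on chromosome 19, and the difference between the clusters was not tested. The third 3p strand, miR-24-3p, is made by both clusters and had 19100 and 18800 CPM in Ctrl and 22000 and 21700 CPM in SDS D16 (0.21, SE 0.20). Over the 10 tested strands of both clusters, 2 rose and 2 fell, beside 8.89% and 7.78% of all tested miRNAs. The median was 0.13, beside 0.05 over all tested miRNAs. The a and b forms of these 3p strands share a seed and differ only toward the 3′ end, as the sequences above show, and the difference between the forms was not tested.

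Of the miR-29 hairpins, whose 3p strands repress collagens and other matrix genes, that of miR-29b-1 was split more widely. miR-29b-1-5p fell from 652 and 531 CPM to 152 and 187 CPM (-1.81, SE 0.31, adjusted p = 0.000439). miR-29b-3p was measured at 21.5 and 51.4 CPM in Ctrl and 140 and 59.3 CPM in SDS D16 (1.43, SE 0.55, adjusted p = 0.07) and was not called. It is also made by a hairpin on chromosome 1. The ratio of the 5p to the 3p strand was 30.4 and 10.3 in Ctrl and 1.09 and 3.15 in SDS D16. miR-29a-3p, the abundant family member, had 12300 and 13200 CPM in Ctrl and 21600 and 14400 CPM in SDS D16 (0.50, SE 0.25, adjusted p = 0.149). Its partner miR-29a-5p had 0.08. In that hairpin the 5p minus 3p difference was -0.42, beside a median of 0.55 in either direction over 94 hairpins.

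In miR-125a and miR-125b-1 the less abundant arm is the 3p strand, and it fell. Another 3p strand of the family, miR-125b-2-3p, had a log2 fold change of 0.89 and was not called. miR-125a-3p went from 197 and 140 CPM to 67.9 and 72.5 CPM (-1.26, SE 0.33, adjusted p = 0.0112), beside miR-125a-5p with 0.01 (SE 0.19). miR-125b-1-3p went from 2360 and 2020 CPM to 1260 and 1230 CPM (-0.81, SE 0.25, adjusted p = 0.0273), beside miR-125b-5p at 53000 and 52900 CPM in Ctrl and 62300 and 60600 CPM in SDS D16. miR-92b-5p fell from 219 and 194 CPM to 45.1 and 55.0 CPM (-2.06, SE 0.45, adjusted p = 0.00317). The ratio of the 5p to the 3p arm was lower in both SDS D16 libraries in 31 of the 94 hairpins and higher in 22, and it overlapped in 41. In miR-574, whose 5p strand fell from 3740 and 3300 CPM to 2410 and 2150 CPM (-0.62, SE 0.21, adjusted p = 0.0383), it went from 2.34 and 1.94 to 0.947 and 1.06.

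The largest block of miRNAs that rose lies in the imprinted DLK1-DIO3 region at 14q32, where maternally expressed noncoding transcripts such as MEG3, MEG8 and MEG9 host one of the longest miRNA clusters of the genome. Of its 90 listed strands 68 were tested. In these 68, 19 rose and 0 fell in edgeR, and 20 were higher and 0 lower in DESeq2. Each tool called 8.89% higher over all tested miRNAs. At an unadjusted p below 0.05 in edgeR, 35 of the 68 were higher and 0 lower, beside 17.8% higher over all tested miRNAs. The median log2 fold change was 0.66, and 61 of the 68 were above 0. Summed over the locus, the level went from 67500 and 63700 CPM in Ctrl to 87500 and 105000 CPM in SDS D16. Among the 292 tested miRNAs outside the locus 13 rose and 28 fell, with a median of -0.19.

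The tested hairpins with a RefSeq position, 47 genes, span chr14:100852390-101066801 on the plus strand in 2 groups. In the proximal group, around MIR493HG and the RTL1 antisense miRNAs, 5 of 16 tested strands rose with a median of 0.66. In the distal group, in and around MEG8 and MEG9, 14 of 52 rose with a median of 0.66. Over all tested miRNAs 8.89% rose. The groups are 2 stretches of 58.8 kb and 44.7 kb.

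miR-127-3p, encoded antisense to RTL1 at chr14:100882979-100883075, went from 2910 and 3500 CPM to 5390 and 6550 CPM (0.90, SE 0.17, adjusted p = 0.000822). miR-329-3p, made from 2 hairpins of the distal group, went from 1640 and 1660 CPM to 2850 and 3290 CPM (0.90, SE 0.19, adjusted p = 0.00233). miR-493-5p, the most abundant of those that rose, went from 5020 and 4820 CPM to 8910 and 10000 CPM (0.94, SE 0.26, adjusted p = 0.0133). In each of the 3 both senescent libraries lay above both controls by more than the distance between replicates.

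The strands of the locus among the 12 highest changes were less abundant. miR-369-3p went from 635 and 671 CPM to 1610 and 1540 CPM (1.27, SE 0.37, adjusted p = 0.0181). miR-410-3p went from 279 and 288 CPM to 518 and 734 CPM (1.13, SE 0.33, adjusted p = 0.0173). miR-655-3p stood at 68.6 and 80.0 CPM in Ctrl and at 183 and 182 CPM in SDS D16 (1.28, SE 0.41, adjusted p = 0.0287). All 3 hairpins lie in introns of MEG9.

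Also from the locus, miR-668-3p went from 34.3 and 31.4 CPM to 99.4 and 112 CPM (1.68, SE 0.52, adjusted p = 0.0273). miR-323b-3p (1.01, SE 0.26, adjusted p = 0.00871) and miR-337-3p (1.01, SE 0.31, adjusted p = 0.0259) completed these. The other strands that rose were miR-487b-3p, miR-494-3p, miR-495-3p, miR-409-5p, miR-411-5p, miR-412-5p, miR-654-3p, miR-127-5p, miR-369-5p and miR-493-3p, with log2 fold changes of 0.66 to 0.93. The hairpins of miR-127, miR-369 and miR-493 are the 3 in which both arms rose. Of the 19, miR-127-3p and miR-329-3p were called in all 4 fits that left out a library.

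**Figure D3:**
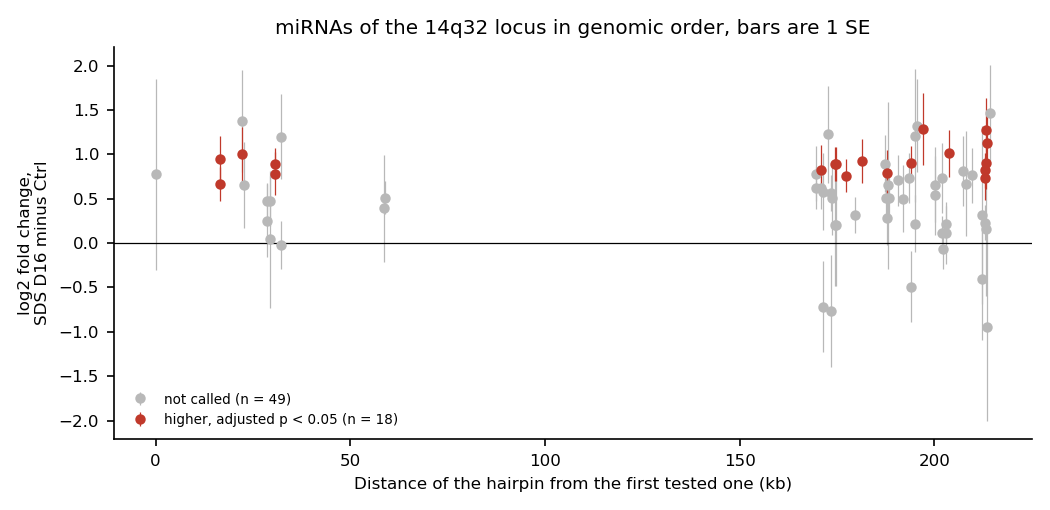
Log2 fold change of SDS D16 over Ctrl (y axis, bars 1 SE) for 67 tested miRNAs of the 14q32 locus against the distance of their hairpin from the first tested one in kb (x axis). 18 of the 19 called higher (red) have a position, 5 in the proximal and 13 in the distal group, and no strand was called lower.

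Outside 14q32, 13 miRNAs rose. miR-664a-3p showed the highest log2 fold change among the called miRNAs, 2.12 (SE 0.54, adjusted p = 0.00871), from 21.5 and 28.6 CPM to 107 and 119 CPM. Its hairpin, chr1:220200538-220200619 in an intron of RAB3GAP2, overlaps the small nucleolar RNA gene SNORA36B, so fragments of that RNA and the miRNA cannot be told apart. The 5p strand of the hairpin, at 17.2 and 11.4 CPM in Ctrl and 42.4 and 39.6 CPM in SDS D16, did not pass (1.55, SE 0.62, adjusted p = 0.0769). miR-326, in an intron of ARRB1, went from 25.7 and 14.3 CPM to 71.2 and 72.5 CPM (1.88, SE 0.59, adjusted p = 0.0273). In each Ctrl library these 3 strands rest on 10 or fewer counts.

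miR-126-3p, encoded in EGFL7 and known as the endothelial miRNA that sustains VEGF signalling, went from 42.9 and 42.8 CPM to 133 and 121 CPM (1.56, SE 0.41, adjusted p = 0.00993). Its partner miR-126-5p had 3 and 0 counts in Ctrl and 15 and 5 counts in SDS D16. At these levels miR-126-3p is far below the fibroblast strands above. Whether a few cells of another kind or a low level in all cells carried it was not tested.

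miR-146b-5p, a brake on NF-kB signalling through IRAK1 and TRAF6, rose from 755 and 900 CPM to 2300 and 1080 CPM (1.04, SE 0.29, adjusted p = 0.0166), and its 2 senescent libraries differed more than the nearer one did from Ctrl. miR-146a-5p, a family member with the same seed, went the other way, from 47.2 and 37.1 CPM to 19.0 and 11.0 CPM, and was not called (-1.35, SE 0.57, adjusted p = 0.0892). miR-34a-5p, a direct p53 target that represses cyclins and CDKs, rose from 352 and 351 CPM to 648 and 593 CPM (0.82, SE 0.27, adjusted p = 0.0361). DESeq2 did not call it. The other 3 tested strands of the miR-34 family, all rarer, were not called, and the median of the 4 was -0.01, with miR-34c-3p lowest at -1.52 (SE 1.00). The p53-linked miR-192-5p (-1.48, SE 0.54, adjusted p = 0.0565) and miR-194-5p (-0.98, SE 0.40, adjusted p = 0.0826) had both senescent libraries below Ctrl and were not called by edgeR, while DESeq2 called 1 of the 2 lower. miR-181a-5p, known from T cell receptor signalling, rose from 3190 and 3540 CPM to 6270 and 6060 CPM (0.87, SE 0.18, adjusted p = 0.00183). The last of the 12 highest, miR-148b-3p, rose from 305 and 380 CPM to 770 and 583 CPM (0.98, SE 0.33, adjusted p = 0.0361), and miR-374b-5p, from the noncoding FTX transcript, rose from 197 and 197 CPM to 432 and 332 CPM (0.96, SE 0.29, adjusted p = 0.0231).

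Of the widely expressed miR-30-5p family 1 of 5 tested members rose and 3 were higher at an unadjusted p below 0.05, beside 8.89% and 17.8% of all tested miRNAs, with a median of 0.84. A single call in 5 is close to that background. miR-30a-5p was that member, from 13300 and 13900 CPM to 26200 and 25200 CPM (0.91, SE 0.24, adjusted p = 0.00871). miR-30d-5p, at 22000 and 23400 CPM in Ctrl and 20300 and 25100 CPM in SDS D16, overlapped between the groups. The cluster of miR-424, miR-503, miR-542 and miR-450, linked to cell cycle exit, had 0 calls in edgeR and in DESeq2, but 4 of 7 strands were higher at an unadjusted p below 0.05, beside 17.8% of all tested miRNAs, and the median was 1.01. In miR-542-3p, which led it, the levels were 85.8 and 106 CPM in Ctrl and 405 and 160 CPM in SDS D16 (1.58, SE 0.60, adjusted p = 0.0674).

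Lists below the overall median without calls included miR-15, miR-16, miR-195 and miR-497, which repress cyclins and BCL2. Its 5 tested members had a median of -0.58, with 0 calls in edgeR, 1 lower at an unadjusted p below 0.05 and 1 lower in DESeq2, beside 16.1% and 11.1% of all tested miRNAs. The list of miR-193 and miR-365 had 0 calls among 6 in edgeR, 3 lower at an unadjusted p below 0.05, and 1 lower in DESeq2, with a median of -0.79. Here miR-365b-5p, at 129 and 117 CPM in Ctrl and 38.0 and 44.0 CPM in SDS D16, came closest (-1.60, SE 0.59, adjusted p = 0.0587). The lists of miR-143 and miR-145, of miR-199 and miR-214, and of miR-99 and miR-100, typical of fibroblasts and smooth muscle, had medians of 0.04, -0.05 and 0.01 and 0 calls in either tool, with 1 strand of miR-199 and miR-214 higher and 0 of the others changed at an unadjusted p below 0.05.

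**Figure D4:**
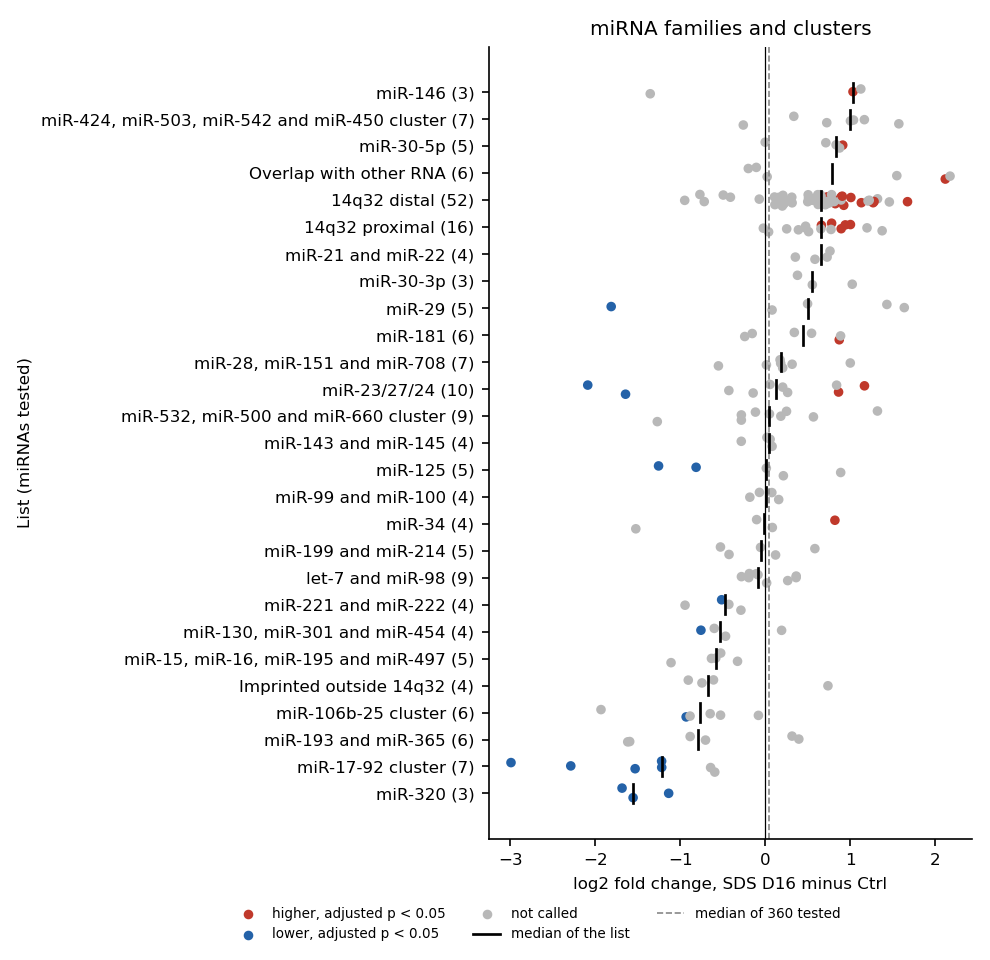
Log2 fold change of SDS D16 over Ctrl (x axis) for the tested members of each family or cluster list with at least 3 tested (y axis, number tested in brackets), 1 point per miRNA, red when called higher and blue when called lower, with a black bar at the list's median and a dashed line at the median of all tested miRNAs. The miR-320 family and the miR-17-92 cluster have the lowest medians among these lists, and both 14q32 groups lie near 0.66.

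The change also varied with the base composition of the strand. The log2 fold change had Pearson's r of -0.37 and Spearman's rho of -0.39 with the percentage of G and C over the 329 miRNAs with a RefSeq sequence, given as a description because these miRNAs share the same 4 libraries. Called miRNAs had a median of 45.5% GC when higher and 54.5% when lower, beside 50.0% over those tested. The same r was -0.54 within 14q32 and -0.31 outside it. For the difference between the 2 SDS D16 libraries, of which replicate 1 has the larger total, r was -0.27, and between the Ctrl libraries it was 0.01. It was -0.42 without SDS D16 replicate 2 and -0.22 without SDS D16 replicate 1. The part of base composition in the single calls was not tested.

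Levels of the named miRNAs on the earlier days show that the D16 values were reached along different courses. Each day's comparison uses the same Ctrl libraries, so the values are set side by side without a test between days. miR-155-5p was at 7210 and 5720 CPM at D0, 4930 and 5280 CPM at D3, 3250 and 3080 CPM at D8, and lowest at D16. miR-29b-1-5p, at 688 and 534 CPM at D0 and 160 and 248 CPM at D8, went down in a similar manner.

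The miR-320 strands and miR-23a-5p took a different course, with levels at or above Ctrl at D0 and D1. miR-320a was at 27300 and 19300 CPM at D0 and 16600 and 35900 CPM at D1, before 7680 and 8400 CPM at D8. miR-23a-5p was at 459 and 423 CPM at D0 and 351 and 904 CPM at D1, and its D8 libraries still differed, at 82.6 and 226 CPM. At D1 and D2 the replicates of both strands spread widely.

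Of the miRNAs that rose, miR-146b-5p stood below Ctrl on the way, at 396 and 473 CPM at D3 and 613 and 453 CPM at D6, and at 1010 and 574 CPM at D8. miR-27b-3p had both libraries above Ctrl from D6, at 2840 and 2630 CPM. miR-664a-3p was already at 80.4 and 87.9 CPM at D1, and no library after D0 was below 65.8 CPM. Over the tested 14q32 strands the median log2 fold change from Ctrl was 0.06 at D0, 0.30 at D3, 0.54 at D4 and 0.61 at D6. For miR-17-92 it was -0.40 at D0, -0.62 at D3 and -1.34 at D8.

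**Figure D5:**
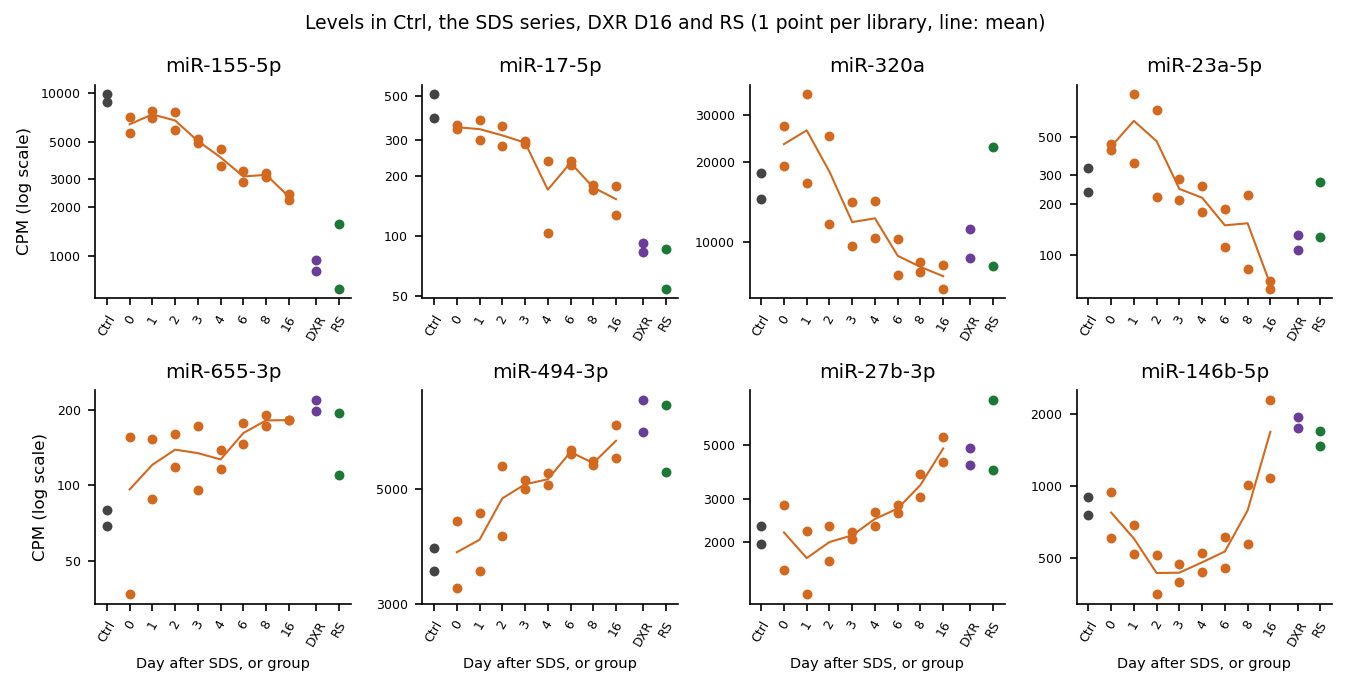
CPM (y axis, log scale) of 8 miRNAs in Ctrl, on the days of the SDS series (x axis, days evenly spaced), in DXR D16 and in RS, 1 point per library, with a line through the SDS means. miR-155-5p declines to 2420 and 2230 CPM at D16, and miR-146b-5p dips before it rises. miR-320a and miR-23a-5p stand above Ctrl at D0 in both libraries before they fall. At D1 and D2 their high values are those of replicate 2, and at D2 replicate 1 lies below Ctrl.

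How far the D16 profile is shared with other forms of senescence was tested directly. Against DDR-Sen D16, 2 of 360 miRNAs (0.556%) differed, both higher in PMD-Sen D16. miR-155-5p had 948 and 814 CPM in DXR D16, and the log2 difference was 1.40 (SE 0.26, adjusted p = 0.00278). miR-4286 had 76.1 and 65.9 CPM in SDS D16 against 20.7 and 7.66 CPM in DXR D16 (2.38, adjusted p = 0.0245), where the DXR values rest on 8 and 4 counts. Against Ctrl, with 85.8 and 57.1 CPM, it was not called. The count was 0 without SDS D16 replicate 1, 4 without SDS D16 replicate 2, 1 without DXR D16 replicate 1 and 0 without DXR D16 replicate 2, and a p that misses the threshold does not show that the profiles are alike.

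Against RS, 33 miRNAs (9.17%) differed, 22 higher and 11 lower in PMD-Sen D16, among them 11 of the 60 called against Ctrl and 1 of the 68 tested 14q32 strands. miR-20a-5p had 28.6 and 25.7 CPM in RS (log2 difference 2.16, SE 0.39, adjusted p = 0.000534), and miR-93-5p had 1130 and 1050 CPM (1.04, SE 0.17, adjusted p = 0.000251). Both were thus lower than Ctrl in PMD-Sen D16 and lower still in RS. miR-181a-5p stood at 10800 and 14400 CPM in RS, above PMD-Sen D16 (-1.03, SE 0.18, adjusted p = 0.000431). The RS libraries often lay apart, as for miR-155-5p at 1590 and 633 CPM, and the count was 3 without SDS D16 replicate 1, 12 without RS replicate 1 and 72 without RS replicate 2.

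List medians against the same Ctrl libraries can be set beside these. For miR-17-92 the median log2 fold change was -1.22 in PMD-Sen D16, -2.35 in DDR-Sen D16 and -2.70 in RS. For the miR-320 family it was -1.56, -0.82 and -0.13, and for 14q32 0.66, 0.63 and 0.53. Differences between these medians were not tested.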

How the data were processed

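Small RNA of WI-38 cells was sequenced from total RNA with the NEXTFLEX Small RNA-Seq Kit v3. The authors trimmed the reads and counted mature miRNAs with exceRpt against GRCh38 and miRBase. They deposited expected counts, not normalized, which split reads that match several miRNAs, so 103 of the 6032 values of the 4 libraries are not whole. They were rounded here. Libraries were assigned by their labels, which call replicates biological.

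Differential expression was tested with edgeR 4.0.16 (TMM, quasi-likelihood test) in R 4.3.3, with all 36 libraries in the model. filterByExpr kept 360 of 1508 miRNAs, at least 99.8% of each library. p-values were adjusted by Benjamini-Hochberg over these, with 0.05 as threshold. The biological coefficient of variation was 20.9%. Depth limits rare miRNAs, and the limits at 3 counts cover counting error only. The procedure was tested on simulated data. miRNAs named are the 12 highest and 12 lowest log2 fold changes with adjusted p below 0.05 and groups apart, the 10 most abundant, list members and those that differed from DXR D16 or RS. Other called miRNAs were added after their values were seen. Members and lists were chosen with earlier results of these data known. Alternatives were DESeq2 1.42.0, other scalings and filters, thinning, the replicate block, only the 2 groups compared, and leaving out each library. Sequences and positions are from RefSeq, host genes from GENCODE.

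Replicate numbers were not used to pair the samples in the main fit. The deviations of same-numbered libraries of SDS D16 and Ctrl had r = -0.13. With 2 libraries per group this cannot decide whether same-numbered libraries belong together. Messenger RNA and other experiments of the study were not analysed here.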

Additional observations from a re-analysis of the deposited data

Results flagged for a closer look

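Several miRNAs of PMD-Sen D16 differed from another senescent group in the direct comparison, so that their change from Ctrl differed between the forms of senescence. Against DDR-Sen D16 this was miR-155-5p, which was 1.40 higher on the log2 scale (SE 0.26, adjusted p = 0.00278).

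Compared with RS, levels in PMD-Sen D16 were higher for miR-20a-5p (2.16, adjusted p = 0.000534), miR-148b-3p (1.19, adjusted p = 0.0158), miR-17-5p (1.17, adjusted p = 0.0289), miR-155-5p (1.08, adjusted p = 0.00702), miR-374b-5p (1.06, adjusted p = 0.0131), miR-93-5p (1.04, adjusted p = 0.000251), miR-130b-5p (0.94, adjusted p = 0.0266) and miR-222-3p (0.51, adjusted p = 0.0363). They were lower for miR-23a-5p (-1.57, adjusted p = 0.0447), miR-320b (-1.56, adjusted p = 0.0271), miR-181a-5p (-1.03, adjusted p = 0.000431) and miR-125a-5p (-0.84, adjusted p = 0.0036). These are log2 differences from edgeR's quasi-likelihood test over 360 miRNAs. miR-148b-3p and miR-374b-5p were higher than Ctrl in PMD-Sen D16, and in RS their libraries had 222 and 368 CPM and 143 and 223 CPM. In RS the libraries lay far apart for miR-320b, at 255 and 90.0 CPM, and for miR-23a-5p, at 272 and 127 CPM.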

How the results depend on the processing

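Counts of miRNAs higher and lower than Ctrl, 32 and 28, moved by more than 1.5 times under these settings: 18 lower without a low-count filter, 57 lower with only the 2 groups compared, and 11 higher with an absolute log2 fold change above 1 added. Leaving out 1 library gave 6 to 20 higher and 10 to 16 lower. The 2 called against DXR D16 became 4 without the filter, 11 with only the 2 groups, 5 in DESeq2, 17 at the study's thresholds and 0 to 4 in the leave-one-out fits. The 33 against RS became 1 with only the 2 groups, 51 at the study's thresholds and 3 to 72 in the leave-one-out fits. The cause was not tested, apart from the fewer libraries in a fit. With the replicate number as a block there were 32 higher and 27 lower, 2 against DXR D16 and 37 against RS. Crossed pairing, tried after seeing the data with only the 2 groups compared, gave 51 higher and 55 lower. A fit that leaves a group with 1 library assumes that it varies like the others.

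Each of the 24 miRNAs with the highest and lowest changes kept its direction in all settings, 214 of 285 values stayed past the threshold and 71 did not. 4 of the 24 were called in all 4 leave-one-out fits. For these 24, chosen with groups apart, a direction kept with any 1 library left out largely follows from that choice. Signs turned for 8 named miRNAs that were not called, 6 of them near 0, and for the other 2, miR-21-5p and miR-23b-5p, without 1 library. Other tested miRNAs turned too, such as miR-101-3p, with a log2 fold change of 1.08 and a lowest leave-one-out value of -0.181. With DESeq2's size factors in edgeR the log2 fold changes of let-7a-5p, miR-100-5p, miR-125a-5p, miR-30d-5p and miR-23a-3p were -0.068, -0.005, -0.067, -0.076 and -0.027, and the same in DESeq2. With total counts they were -0.072, -0.012, -0.075, -0.083 and -0.036. With only the 2 groups they were -0.102, -0.034, -0.094, -0.100 and -0.056. With a mean of at least 10 counts those of let-7a-5p, miR-125a-5p, miR-30d-5p and miR-23a-3p were -0.047, -0.053, -0.066 and -0.010. miR-30d-5p had -0.002 with the block. miR-106b-5p turned to 0.004 without a filter and 0.069 after thinning. In the leave-one-out fits the ranges were -0.211 to 0.290 for let-7a-5p, -0.018 to 0.046 for miR-125a-5p, -0.159 to 0.146 for miR-30d-5p, -0.086 to 0.694 for miR-21-5p, -0.004 to 0.115 for miR-23a-3p, -0.863 to 0.092 for miR-23b-5p and -0.425 to 0.171 for miR-106b-5p. Depth limits the rare strands, as 3 counts are 12.9 CPM in the shallower Ctrl library.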

Other observations

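Among the 1148 miRNAs that were not tested, 564 had 0 counts in all 4 libraries and none exceeded 65 counts. That highest value belonged to miR-376a-5p, a 14q32 strand, with 1 and 4 counts in Ctrl and 65 and 7 counts in SDS D16. In 5 untested miRNAs both SDS D16 libraries were above 3 counts with 0 counts in both Ctrl libraries, and in 0 the reverse was seen. The deeper SDS D16 libraries raise the chance of such counts, and their part in it was not tested.

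The liver miRNA miR-122-5p was at 98.7 and 14.3 CPM in Ctrl and at 15.8 and 8.79 CPM in SDS D16, so a single Ctrl library stood out.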
